A study of Malus domestica with 8 samples.

Results

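The libraries numbered replicate 2 were set against those numbered replicate 1, 4 libraries a side, which is all 8 of the 8 libraries of the series, with each pair taken within its genotype. The apple (Malus domestica) cultivar 'Gala' was the background of every plant: 1 pair came from the non-transformed control (wt) and 1 pair from each of mdagg-2, mdagg-3 and mdagg-4, CRISPR/Cas9 lines made to knock out MdAGG, which encodes an agglutinin, a carbohydrate-binding protein. Micropropagated, rooted plants stood in the greenhouse for 8 weeks (22 °C, relative humidity of 80%) and then received a runoff spray of 0.2 g/l acibenzolar-S-methyl (ASM). Leaves were taken 3 days later, so ASM treatment was common to all groups, and each library was a bulk of leaves. The design text speaks of 2 independent experiments per genotype, but it does not say that a number marks the same experiment in every genotype. The pairs ask which leaf transcripts shifted together with the number, and whether the numbers behaved like shared experiments. No transformed control is among the samples, and the labels do not describe the edits or say whether a line is 1 clone.

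As background, leaf messenger RNA differs between plantings because light, temperature, time of day, leaf age and water status all act on transcription. ASM is a functional analogue of salicylic acid, the plant hormone that switches on defence genes such as those of pathogenesis-related proteins. Plants grown and sampled together would be expected to share such differences whatever their genotype.

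Total estimated reads ranged from 28591909 to 36995911 per library. Of the 52311 features in the files 32373 passed the filter on low counts and were tested. The identifiers carry no gene names in the files, and 0 of them matched the reference table of gene names, so features are given by identifier and their functions are not described. For the same reason the leaf origin could not be checked against marker genes, and no gene group could be counted. In a bulk, fewer cells of a type and less RNA per cell cannot be told apart.

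In the quasi-likelihood test of edgeR no feature differed between the numbers at a threshold of 0.05 on the adjusted p, with 0 higher and 0 lower in replicate 2 (0% each way, smallest adjusted p 0.414). The fit compared replicate 2 with replicate 1 with genotype as a block, which left 3 residual degrees of freedom. At an unadjusted p under 0.05 there were 1673 higher features (5.17%) and 2086 lower ones (6.44%), 3759 in all or 11.6% of those tested. That number depended on single genotypes. It was 1170 without the mdagg-2 pair, 1568 without the mdagg-4 pair, 4473 without the mdagg-3 pair and 5604 without the wt pair, and no feature was called in any of these 4 fits. DESeq2 with the same design called 50 features higher (0.196% of the 25499 it gave an adjusted p) and 227 lower (0.89%), while limma-voom called 0 and 0.

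The features called by DESeq2 were shifted in every genotype but by unequal amounts. The 227 called lower had median log2 differences of -0.62 in wt and -0.54 in mdagg-3, beside -1.46 for mdagg-2 and -1.18 for mdagg-4, and 221 of them were lower in all 4 genotypes. The 50 called higher had medians of 0.50, 0.73, 1.36 and 0.97 in the same order, and 46 of them were higher in all 4. In mdagg-2 and mdagg-4 these features thus moved further than in wt and mdagg-3. The same libraries made the calls, so these medians describe the called features and are no separate evidence. The called features also differed in length, with a median of 3011 bases for those called higher and 1147 for those called lower, beside 1515 for all features tested. In edgeR's test all 50 and all 227 had an unadjusted p under 0.05.

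The 4 features printed here are the 2 with the smallest p in each direction, and none of them passed edgeR's threshold. The identifier MD03G1222700 (field 03, the chromosome field of apple identifiers, 1667 bases) was at 16.3 CPM in wt replicate 1 and 27.3 in replicate 2, where CPM is the normalised read count after TMM scaling to a common library size. The mdagg-2 pair was at 19.2 and 39.96 CPM, the mdagg-3 pair at 21.01 and 36.9, and the mdagg-4 pair at 15.95 and 37.2. The 4 replicate 2 libraries all lay above the 4 replicate 1 libraries. The means were 35.4 ± 5.53 CPM (SD, n = 4) and 18.1 ± 2.42 (SD, n = 4), which is 0.96 ± 0.13 on the log2 scale (SE, edgeR adjusted p = 0.414, 8.41e-05 to 0.974 over its 14 alternatives). For each of the 4 printed features only the 2 DESeq2 fits passed the threshold, and the lowest adjusted p of each range is from DESeq2.

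MD05G1319800 (field 05, 1764 bases) was at 8.41 and 16.4 CPM in wt, replicate 1 first. The mdagg-2 pair was at 11.5 and 37.0, the mdagg-3 pair at 5.07 and 7.57, and the mdagg-4 pair at 12.4 and 36.3 CPM. It was higher in replicate 2 of each genotype, but the groups overlapped because the mdagg-3 pair was lower than the others. The fitted log2 difference was 1.21 ± 0.21 (SE, edgeR adjusted p = 0.414, 0.000951 to 0.974 over its alternatives), and in mdagg-3 alone the log2 difference was 0.57.

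Among the lower features, MD14G1194800 (field 14, 884 bases) had 287 and 128 reads in wt, and the pairs of mdagg-2, mdagg-3 and mdagg-4 had 171 and 46, 203 and 53, and 61 and 20. In CPM these were 8.38 and 3.32, 5.89 and 1.56, 6.64 and 1.47, and 1.77 and 0.498. Every genotype was lower in replicate 2, while the groups overlapped because both mdagg-4 libraries were the lowest of their number. The log2 difference was -1.80 ± 0.21 (SE, edgeR adjusted p = 0.414, 3.51e-06 to 0.974 over its alternatives), and it was at least 2-fold within each genotype, from -2.13 in mdagg-3 to -1.32 in wt.

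MD16G1024000 (field 16, 920 bases) was at 4.38 and 1.64 CPM in wt, and at 8.41 and 2.27 in the pair of mdagg-2. The mdagg-3 pair was at 4.88 and 2.09 CPM and the mdagg-4 pair at 1.95 and 0.448. It too was lower in replicate 2 of every genotype, with mdagg-4 lowest at both numbers. The log2 difference was -1.64 ± 0.23 (SE, edgeR adjusted p = 0.414, 7.31e-05 to 0.974 over its alternatives). On the TPM scale, which is per transcript length, the 4 features averaged 20.4, 12.4, 5.64 and 4.69 over the 8 libraries, so the higher pair was also the more abundant pair.

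**Figure D1:**
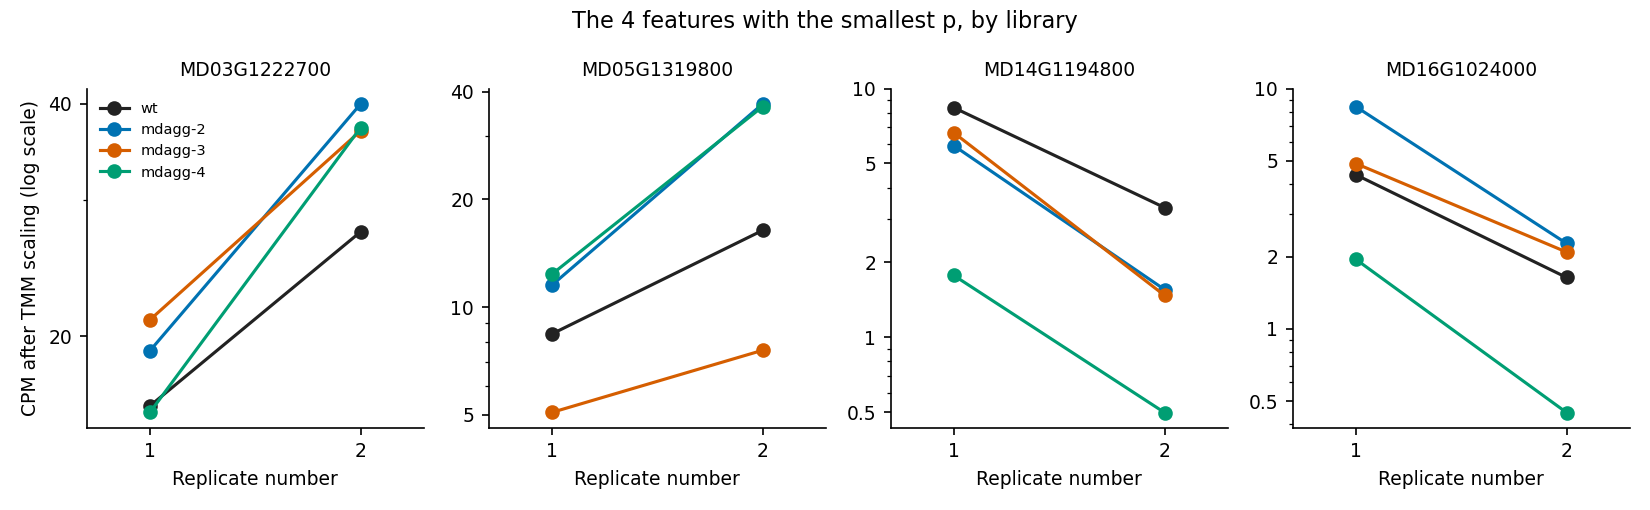
CPM after TMM scaling (log axis) of the 4 printed features in the 8 libraries, with replicate number on the horizontal axis and a line for each genotype. All 16 lines slope the way of the fitted difference; the 2 numbers are fully separated for MD03G1222700 and overlap for the other features.

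A shift of at least 2-fold in all 4 genotypes was rare. It was seen for 5 features in the higher direction (0.0154% of those tested) and 7 in the lower direction (0.0216%). The 5 higher ones were weakly expressed, at mean levels of 0.142 to 0.389 CPM, and DESeq2 called 0 of them. The 7 lower ones lay at 0.287 to 7.8 CPM with mean log2 shifts of -2.61 to -1.51, and DESeq2 called 4 of them. When only the sign was asked for, 3318 features were higher in replicate 2 of every genotype (10.2%) and 3397 lower (10.5%). The 4 libraries of each number did not overlap at all for 675 features higher in replicate 2 (2.09%) and 646 lower (2%), of which 48 and 54 differed by 2-fold or more in the mean.

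Most features with a shift of at least 2-fold passed that size in a single genotype. The most extensive shift was that of mdagg-2, in which 3216 features were at least 2-fold higher (9.93%) and 2119 at least 2-fold lower (6.55%) in replicate 2. In mdagg-4 there were 1919 higher (5.93%) and 1568 lower (4.84%), in mdagg-3 1470 (4.54%) and 1018 (3.14%), and in wt 735 (2.27%) and 1554 (4.8%). With 1 library on each side within a genotype these are sizes with no test. The balance thus leaned to higher features in the 3 lines and to lower features in wt. Features shifted at least 2-fold were less abundant than most. Median levels of the higher and lower ones were 2.45 and 2.89 CPM for mdagg-2 and 1.34 and 3.37 for mdagg-4. They were 1.06 and 1.09 CPM for mdagg-3 and 0.799 and 1.34 for wt, beside 9.63 for all features tested. The part of low read numbers in the counts of 2-fold features was not tested. In all, 8842 features (27.3%) were shifted at least 2-fold in 1 genotype or more. Of these, 2914 were higher in a single genotype and 2321 lower in a single genotype, without the opposite shift elsewhere. A further 1235 were higher in 2 or more genotypes and lower in none, 1045 were lower in 2 or more and higher in none, and 1327 were higher in some genotypes and lower in others.

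The shifts of the 4 genotypes share no library, so their likeness can be read directly, apart from the common scaling. Across 32373 features, which are not independent replicates, the correlation of log2 differences was 0.529 between mdagg-2 and mdagg-4. It was 0.262 between wt and mdagg-2, 0.229 between mdagg-3 and mdagg-4, and 0.0903 between mdagg-2 and mdagg-3. Between wt and mdagg-4 it was -0.0475, and between wt and mdagg-3 it was -0.314. Of the 6 pairs of genotypes 3 had a correlation over 0.1, and the wt and mdagg-3 shifts ran against each other. The numbers therefore did not meet the rule that every pair exceed 0.1, and they were not treated as shared experiments.

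**Figure D2:**
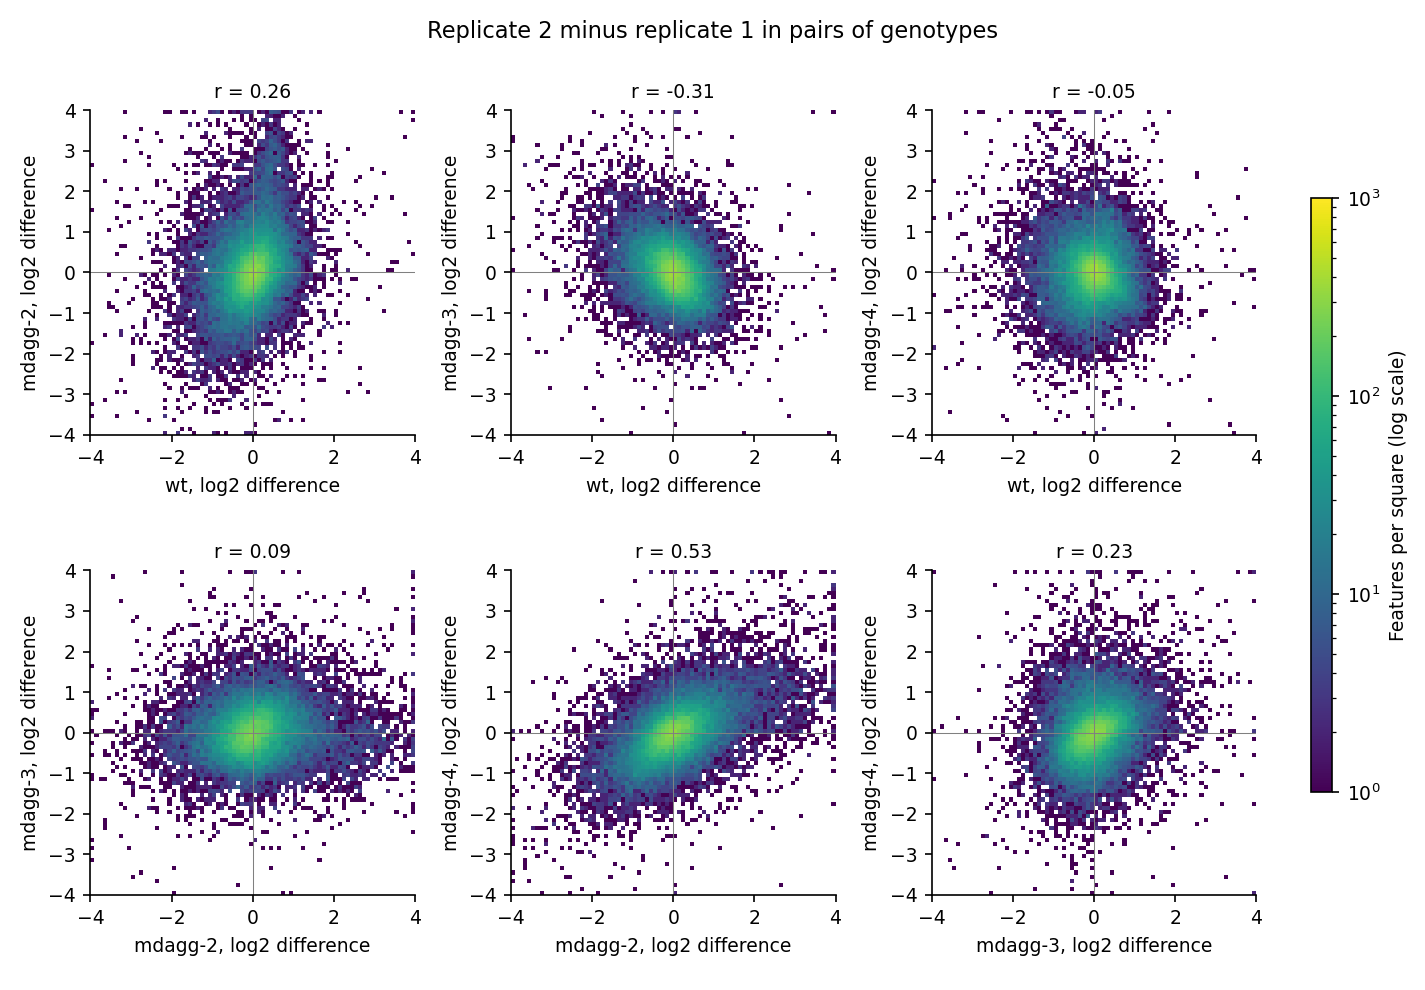
Log2 difference of replicate 2 minus replicate 1 in 1 genotype against that in another, for each of the 6 pairs of genotypes (32373 features, values beyond 4 drawn at the edge, colour for the number of features on a log scale). The cloud is tilted upward for mdagg-2 with mdagg-4 (r = 0.529), and downward for wt with mdagg-3 (r = -0.314).

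The lists of large shifts followed the same order. Of the features at least 2-fold higher in mdagg-4, 54.7% were also at least 2-fold higher in mdagg-2, and these 1050 features made up 32.6% of the mdagg-2 list. The 704 features lower in both were 44.9% of the mdagg-4 list and 33.2% of the mdagg-2 list. The 1050 features had median log2 differences of 0.13 in wt and -0.02 in mdagg-3, neither of which chose them, so both medians were close to 0 there. The 704 lower features had medians of -0.41 in wt and -0.26 in mdagg-3.

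In wt and mdagg-3 opposite directions outnumbered shared ones. Of the 1554 features at least 2-fold lower in wt, 455 (29.3%) were at least 2-fold higher in mdagg-3, where they made up 31% of the higher list, and 67 (4.31%) were lower in mdagg-3. Of the 735 higher in wt, 147 (20%) were lower in mdagg-3 and 50 (6.8%) higher. The median level of the 455 features was 2.25 CPM in wt replicate 1 and 0.727 in wt replicate 2, but 0.687 in mdagg-3 replicate 1 and 2.56 in mdagg-3 replicate 2. These levels were fixed by the choice of the list. Among the libraries that did not choose it, those of mdagg-2 were at 1.21 and 1.15 CPM and those of mdagg-4 at 0.668 and 1.02.

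The number of features with large shifts differed between the genotypes. There were 1081 features at least 4-fold higher in replicate 2 of mdagg-2, against 320 in mdagg-4, 233 in mdagg-3 and 63 in wt. Their median level was 0.62 CPM in mdagg-2 replicate 1 and 5.24 in mdagg-2 replicate 2, the libraries that chose them, so this difference is given by the choice. For wt it was 3.88 and 4.54, for mdagg-3 2.03 and 2.09, and for mdagg-4 3.52 and 7.45, replicate 1 first. Among the 6 libraries that did not choose the list, mdagg-4 replicate 2 had the highest median and the mdagg-3 libraries the lowest. In mdagg-4, which did not choose these features, 91.5% were higher in replicate 2 with a median log2 difference of 1.01. In wt 73.8% were higher (median 0.363), and in mdagg-3 42.5% (median -0.129). Over all features tested 49% were higher in mdagg-4, 50.1% in wt and 49% in mdagg-3. The 1081 features came from all 18 identifier fields. The field with most of them held 8.33%, beside 9.11% for the largest field of all features tested.

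The 400 features at least 4-fold lower in replicate 2 of mdagg-2 were read in the same way. Their median level was 4.03 CPM in mdagg-2 replicate 1 and 0.575 in replicate 2, again by choice. In mdagg-4 it was 1.21 and 0.648, in wt 1.82 and 0.909, and in mdagg-3 2.16 and 2.02. In wt 18% of them and in mdagg-4 14% were higher in replicate 2, so most also had a lower value there. In mdagg-3 40.5% were higher. Over all features tested 50.1% were higher in wt, 49% in mdagg-4 and 49% in mdagg-3.

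When 3 genotypes were used to choose features and the fourth to read them, the result depended on which was left out. The 200 features with the smallest p were taken each time, since 0 features passed the threshold in any of the 4 fits. Each reading rests on a single library a side in the genotype left out. Features are not independent replicates, so counts of features with the same sign are a description and no test. Chosen without mdagg-2, 190 of 200 (95%) had the same sign in mdagg-2, with a median log2 difference of 1.67 for those chosen as higher and -1.49 for those chosen as lower. Over all features tested 70.6% had the same sign. Chosen without mdagg-4, 158 of 200 (79%) had the same sign in mdagg-4, beside 65.9% over all features. The 114 chosen as lower had a median of -0.87 in mdagg-4 (-1.10 in the choosing genotypes), while the 86 chosen as higher had 0.18 (0.77). Chosen without mdagg-3, 94 of 200 (47%) had the same sign in mdagg-3, beside 54.4% over all. Of those 200, 17 were chosen as higher and 183 as lower, with medians of -0.30 and 0.06 in mdagg-3.

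Chosen without wt, on the 3 knock-out lines alone, 51 of 200 (25.5%) had the same sign in wt, beside 50.6% over all features. The 101 features chosen as higher had a median log2 difference of 1.49 in the lines and -0.77 in wt, and the 99 chosen as lower had -1.30 in the lines and 0.17 in wt. The reversal was that of the first 200 features and not of the longer list: of the 5604 features with an unadjusted p under 0.05 in the lines, 49.1% had the same sign in wt. In the longer lists of the other choices the shares were 94.9% of 1168 for mdagg-2, 84.7% of 1568 for mdagg-4 and 51.8% of 4473 for mdagg-3.

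The difference between the shifts was also tested in edgeR with an interaction term that set 1 genotype against the mean of the other 3, with 2 residual degrees of freedom. No feature passed for any of the 4 genotypes (0 higher and 0 lower each, 0%), with smallest adjusted p values of 0.17 for wt, 0.285 for mdagg-2, 0.787 for mdagg-3 and 1 for mdagg-4. At an unadjusted p under 0.05 there were 2608 features for wt (8.06%), 1557 for mdagg-2 (4.81%), 1902 for mdagg-3 (5.88%) and 465 for mdagg-4 (1.44%).

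**Figure D3:**
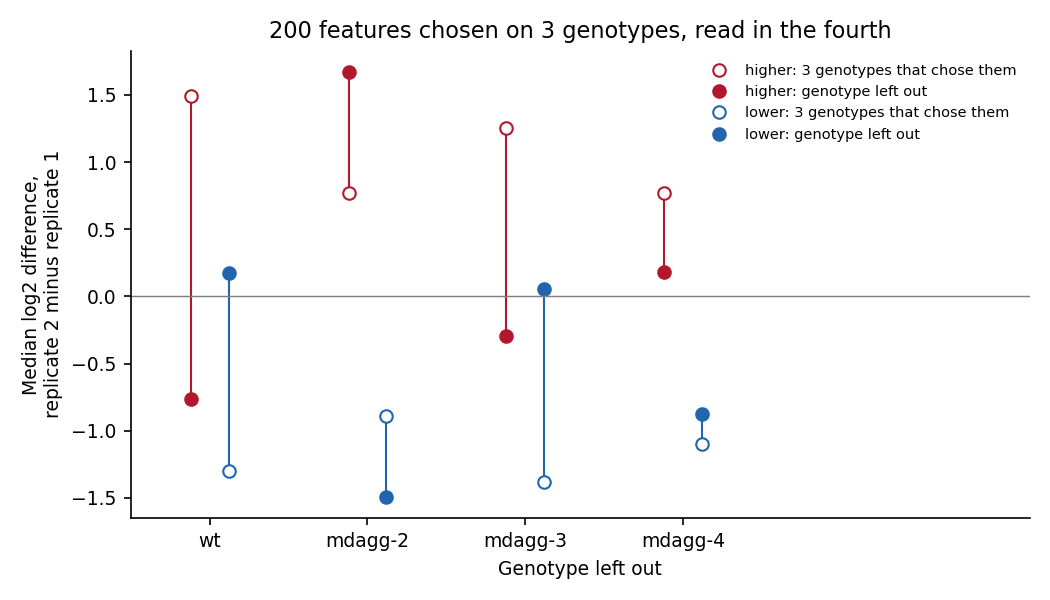
Median log2 difference of replicate 2 minus replicate 1 for 200 features chosen on 3 genotypes (open circles) and in the genotype left out of the choice (filled circles), red for features chosen as higher and blue for lower. Filled circles stay on the side of the open ones for mdagg-2 and mdagg-4 and cross 0 for wt and mdagg-3.

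Whole libraries were no closer within a number than across numbers. The correlation of log2 CPM had the same median, 0.968, in the 12 library pairs that shared a number but not a genotype (0.941 to 0.976) and in the 12 that shared neither (0.907 to 0.981). The closest library had the same number for 4 of the 8 libraries and the other number for 4, and for 0 of them was it the other library of the genotype. The closest partner of wt replicate 1 was mdagg-3 replicate 2 (r = 0.9765), and that of wt replicate 2 was mdagg-4 replicate 1 (0.9807). Of the summed squares of log2 CPM around each feature's mean, replicate number held 20.3% with 1 of 7 degrees of freedom, genotype 45% with 3, and the rest 34.7% with 3. The mean square of the number was 1.76 times that of the rest, and that of genotype 1.3 times.

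Some library measures did move with the number in all 4 genotypes. The mean fragment length implied by Salmon's effective lengths was 194.8 and 197.8 bases in the wt pair, 194.7 and 197.0 in the mdagg-2 pair, 190.1 and 198.5 in the mdagg-3 pair and 195.4 and 196.6 in the mdagg-4 pair. It was higher in replicate 2 each time, by 3.72 ± 3.16 bases (SD, n = 4 pairs). The 1000 most abundant features took 45.1 ± 1.85% of the reads in replicate 1 (SD, n = 4) and 41.2 ± 2.40% in replicate 2, lower in all 4 genotypes. Features with at least 10 reads numbered 30827 ± 388 in replicate 1 and 31305 ± 316 in replicate 2 (SD, n = 4 each), higher in all 4. Of 13 such measures 6 moved one way in all 4 pairs. Besides these 3 they were the TMM factor, the features with any reads and the score on the first principal component. Some of the 6 are related, as the 2 counts of detected features are, so they are not separate signs. The exact two-sided sign-flip test gives p = 0.125 for each of the 6. That is the smallest p that 4 pairs allow, and it was 0.271 after adjustment over the 13 measures.

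**Figure D4:**
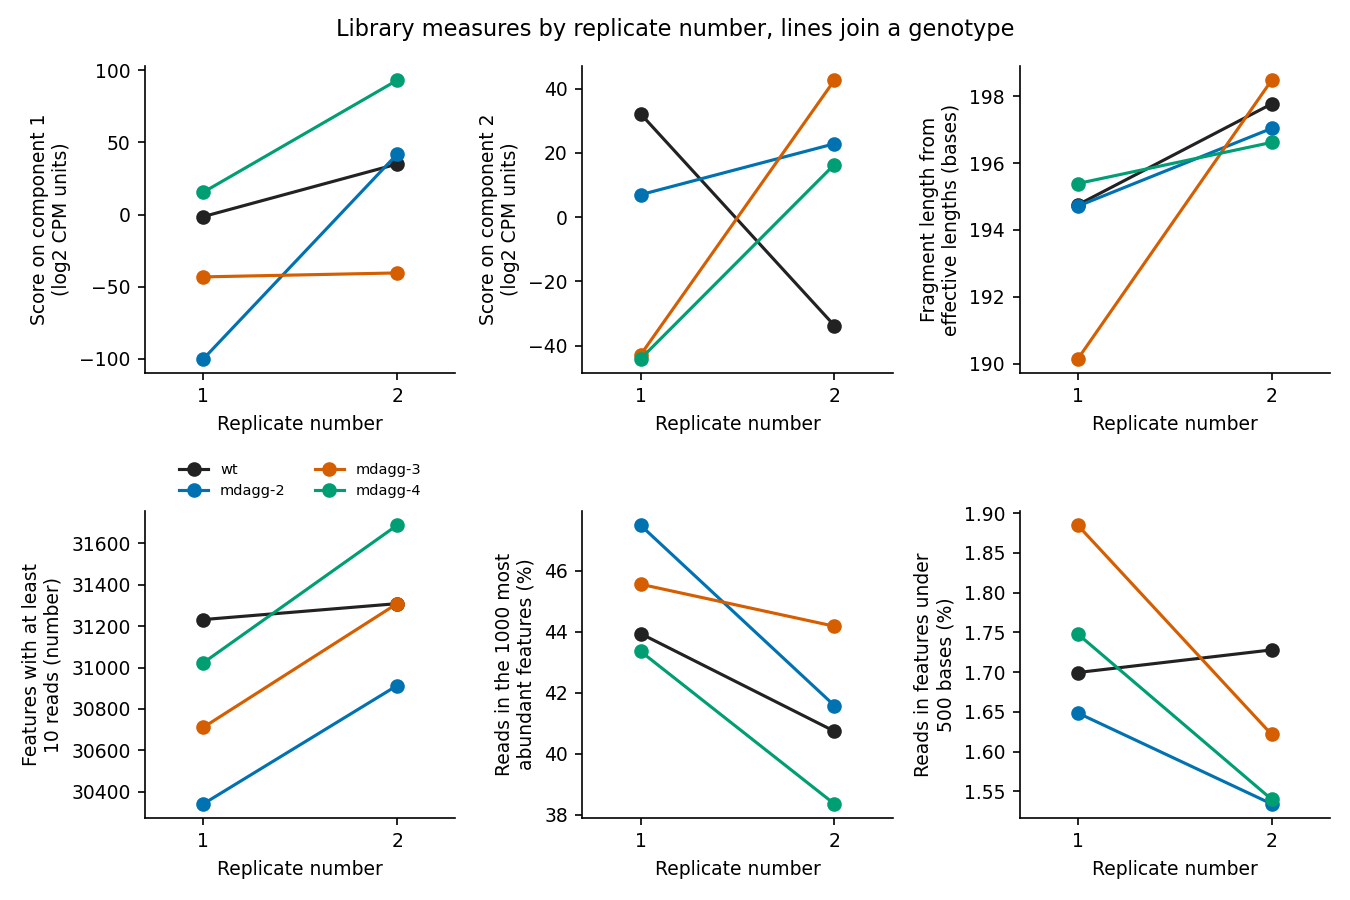
Library measures by replicate number, 1 point per library and a line for each genotype: scores on the first and second principal components, fragment length, features with at least 10 reads, share of reads in the 1000 most abundant features and in features under 500 bases. Fragment length and detected features go up in all 4 genotypes. The sign of each component was set so that replicate 2 has the higher mean. With that sign component 1 goes up in all 4 genotypes by unequal steps, while component 2 falls in wt and goes up in the 3 lines.

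The first principal component of the 8 libraries held 46.3% of the variance and the second 15.7%. The sign of each was set so that replicate 2 had the higher mean. On the second component wt went from 32.2 to -33.8, while mdagg-3 went from -42.9 to 42.6, mdagg-4 from -44.2 to 16.4 and mdagg-2 from 6.96 to 22.8. On this component wt thus moved against the 3 lines. On the first component the step from replicate 1 to replicate 2 was 142.1 in mdagg-2 and 77.7 in mdagg-4, beside 36.5 in wt and 2.74 in mdagg-3. The lowest score was that of mdagg-2 replicate 1 (-100.2) and the highest that of mdagg-4 replicate 2 (93.1). These 2 libraries were also the least alike of all library pairs (r = 0.907). The part of single libraries in the wide steps was not tested.

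The longest features had median shifts above 0 and the shortest ones below 0 in each genotype, by little in wt. Features of 2396 to 18820 bases had median log2 differences of 0.04 for wt, 0.19 for mdagg-2, 0.23 for mdagg-3 and 0.10 for mdagg-4. Features of 90 to 880 bases had medians of -0.02, -0.02, -0.18 and -0.13. Spearman's rho between length and shift across 32373 features, given as a description, was 0.0485 for wt, 0.138 for mdagg-2, 0.283 for mdagg-3 and 0.147 for mdagg-4. Among features shifted at least 2-fold, the higher ones were longer in the median than the lower ones in mdagg-2 (1484 and 1179 bases), mdagg-3 (1436 and 941) and mdagg-4 (1382 and 1126), but shorter in wt (1146 and 1260). The mdagg-3 pair, with the strongest trend, was also the pair with the widest step in fragment length, 8.33 bases, but wt, with the weakest trend, had the next widest, 3.02 bases.

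In the fitted difference over all 4 genotypes 71.8% of the longest group of features were higher in replicate 2, beside 40.6% of the shortest group, and rho was 0.235. With offsets from each library's effective lengths, rho was 0.225. With fragment length added as a term, an alternative chosen after the data were seen, rho was 0.0763 and the shares were 59.2% and 47.5%. Fragment length and replicate number moved together in all 4 pairs, so these fits cannot tell the 2 apart. The part of fragment length in the trend was not tested. Abundance showed no trend common to all genotypes: the least abundant features, below a mean log2 CPM of 0.51, had a median of -0.08 in wt and of 0.15, 0.04 and 0.11 in mdagg-2, mdagg-3 and mdagg-4.

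**Figure D5:**
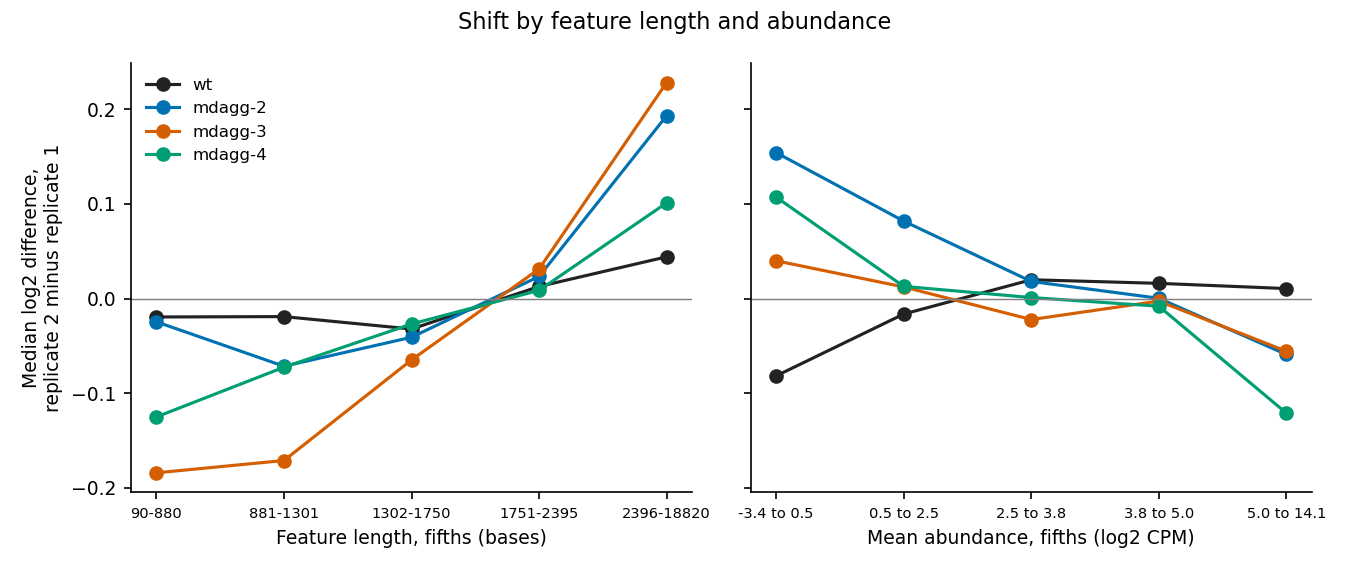
Median log2 difference of replicate 2 minus replicate 1 in 5 bins of feature length (left) and of mean abundance (right), with a line for each genotype. In the length panel all 4 lines are below 0 in the shortest bin and above 0 in the longest (0.04 to 0.23), and in the abundance panel wt runs opposite to the lines in the least abundant bin.

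The shift showed little order along the identifiers, whose 2-digit field stands for the chromosome and whose number rises along it. The median shift over the 4 genotypes lay between -0.0258 and 0.0145 in each of the 18 fields, numbered 00 to 17. Field 00 was not treated as a chromosome and was left out of the comparisons of neighbours. Next neighbours in identifier order had a correlation of 0.0776 in the mean shift (31279 pairs, a description), and neighbours 10 steps apart 0.00397. After a feature higher at an unadjusted p under 0.05, the next feature was so too in 7.66% of cases, beside 5.17% of features compared. For lower features the shares were 8.92% and 6.45%. Near-identical neighbouring copies can share reads. Features whose estimated count was not whole held 77.4% to 82.1% of the reads of a library, which does not tell whether neighbours shared them. The part of shared reads in the likeness of neighbours was not tested.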

How the data were processed

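Leaf messenger RNA of 8 libraries was analysed from tables that the authors deposited for each library. Per the file headers these have Salmon's columns, and the submitters' processing notes name Salmon and DESeq2 without versions. The reference used for it is not given in the sources used here. Deposited estimated counts are expected counts that are not normalized, and they were rounded to whole numbers. TPM values, scaled per length by the authors' Salmon run per the file headers, were used only to compare levels of features. The authors' table of lines against wt was not used here.

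Features were kept by edgeR's filterByExpr (32373 of 52311), scaled with TMM, and tested with edgeR 4.0.16 (R 4.3.3) by quasi-likelihood F tests, with genotype as a block and Benjamini-Hochberg adjustment at 0.05 over all features tested. A standard error is the size of a log2 difference divided by the square root of F. Shifts within a genotype are differences of log2 CPM with a prior count of 2. DESeq2 1.42.0 and limma 3.58.1 were alternatives. The fragment length of a library was taken as the length minus the effective length, plus 1, of features over 3000 bases. The fits were tested on simulated data. The noise there was drawn separately for each feature and library, which need not hold in these libraries.

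Nothing says that the libraries came from separate plants beyond the design text's 2 independent experiments, so the spread between these libraries may be technical. Each genotype has a single library at each number. The p-values of replicate 2 against replicate 1 thus measure the shift against its inequality between genotypes, not against a spread of repeated libraries. Deviations of same-numbered libraries were correlated over 0.1 in 3 of 6 pairs of genotypes, so the numbers were not taken to pair the libraries of different genotypes. The comparison and its lists were chosen with earlier results of these data known. The rule for named genes takes the 2 features with the smallest p in each direction, printed for the main comparison only since identifiers carry no names. The 10 gene lists and 7 marker lists had 0 matched members and were not tested.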

Additional observations from a re-analysis of the deposited data

Results flagged for a closer look

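Of 34 groups of 4 libraries of the same number, 2 held a library far from the others, where chance flags about 1 in 20 groups. Replicate 2 of mdagg-2 had 28591909 estimated reads, beside 36061600 to 36995911 in the other replicate 2 libraries. Replicate 1 of mdagg-3 had an implied fragment length of 190.146 bases, beside 194.711 to 195.388 in the other replicate 1 libraries. The mdagg-3 pair had the strongest length trend (rho 0.283), and a link between the 2 was not tested.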

How the results depend on the processing

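For replicate 2 against replicate 1, edgeR called 0 features higher and 0 lower with RLE factors, total counts, no filter, a mean of 10 reads, no genotype block, effective length offsets, a fragment length term, and without each genotype's pair, as did limma-voom. DESeq2 called 50 higher (0.196%) and 227 lower (0.89%). On the filtered features, an alternative added after seeing the data, it called 53 higher (0.225% of the 23586 given an adjusted p) and 237 lower (1%). Both DESeq2 fits called 48 of the higher and 221 of the lower features. A single library left out is its pair left out, since a lone library carries no information on the shift. With total counts only, the median of all features was 0.124. The 4 printed features kept their direction under all 14 alternatives. They were chosen by p in these same libraries and had 1 sign in all 4 genotypes, so this is no separate evidence. The correlation between mdagg-2 and mdagg-3 was above 0.1 with a prior count of 8 (0.103) and for features above a mean log2 CPM of 3 (0.159). The other 5 correlations stayed on their side of 0.1. For the mean of the lines against wt, edgeR called 0 higher and 0 lower without the replicate block and 0 and 0 with it. DESeq2 called 53 and 19 without the block, of 39707 features given an adjusted p. With the block it called 64 and 25 of 36545. The cause of these differences was not tested. With 4 pairs, tests of single library measures cannot go below an exact p of 0.125.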
